A study of Mus musculus with 6 samples.

Results

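The AKT and WEE1 inhibitors were set against the aldehyde dehydrogenase inhibitor KS100, both given with control IgG and neither with anti-PD-1. The comparison covers every gene with 20 or more counts in at least 1 of these pools, which left 240 of the 43629 genes in the table and 2.08% of the 11551 genes with any count in either pool. Of the 240 genes, 120 reached 20 counts in both pools, 37 only with the AKT and WEE1 inhibitors and 83 only with KS100. They held 39.6% of the counts of the first pool and 37.1% of those of the second. Protein-coding genes made up 225 of them, and the other 15 were ribosomal RNAs, long non-coding RNAs and pseudogenes.

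Tumours came from B16F10 cells, a mouse melanoma line, grown under the skin of 8-week-old female C57BL/6J mice with no allele or transgene named in the labels. One pool received AZD5363, which blocks the AKT kinases, and MK1775, which blocks the kinase WEE1, together with control IgG (called the AKT/WEE1 pool here). The other received KS100 and control IgG (the KS100 pool). A control pool received DMSO and control IgG, and 3 further pools received anti-PD-1 with DMSO, with AZD5363 and MK1775, or with KS100. DMSO is named only for the arms without an inhibitor. Dosing was daily and ended when the tumours of control mice measured 2000 mm3. Tumours of a treatment were combined before RNA was extracted, and each of the 6 treatments has 1 library, so a difference between treatments and a difference between pools cannot be told apart. A count reads the 3′ end of a polyadenylated transcript. In such bulk tissue, fewer cells of a type and less RNA per cell cannot be told apart either.

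AKT kinases act below growth factor receptors and phosphatidylinositol 3-kinase, and they promote survival, glucose uptake, protein synthesis and the exclusion of FOXO factors from the nucleus. WEE1 places an inhibitory phosphate on CDK1 and so holds cells at the border of mitosis until DNA is replicated and repaired. Aldehyde dehydrogenases oxidise reactive aldehydes to acids, several of them make retinoic acid, and high activity is used to mark stem-like melanoma cells.

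The AKT/WEE1 library held 26639 counts and the KS100 library 44748, a 1.68-fold difference in depth, beside 1591673 in the control library. Values are given as counts or as normalised CPM, counts scaled to 1e6 of a library total that is multiplied by edgeR's trimmed mean (TMM) factor. The factors were computed on 4912 filtered genes and their totals, and were applied to the totals of all genes. A count of 3, taken as the most that a count of 0 allows, was 97.4 CPM with AZD5363 and MK1775 and 71.3 CPM with KS100. The KS100 library spread its counts over more genes: 10051 genes had a count, and 7885 after thinning to the depth of the AKT/WEE1 library, where 5737 had one. Genes at 0 in both pools without an inhibitor took 10.4% of KS100 counts (2459 genes) and 1.69% of AKT/WEE1 counts (355 genes). Mitochondrial genes took 13.2% of AKT/WEE1 counts and 17.1% of KS100 counts, against 1.89% in the control pool. The part of these library differences in the gene results was not tested.

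The labelled tissue was checked against the genes that define pigment cells. Dct, which acts in melanin synthesis, had 174 counts in the AKT/WEE1 pool and 134 in the KS100 pool. Tyrp1, a second melanin enzyme, had 26 and 26, the melanosome proteins Mlana and Pmel each had 17 and 10, and the lineage factor Sox10 had 6 and 5. Tyr, the first enzyme of the pathway, had 0 in both, beside 53 counts in the much deeper control library. Both pools thus held melanocyte transcripts, and markers of immune cells had few counts at this depth. Marker lists of T, NK and B cells, macrophages, neutrophils and dendritic cells summed to 18 counts in the AKT/WEE1 pool and 19 in the KS100 pool. Of the macrophage sum of 13 in the AKT/WEE1 pool, 12 came from Apoe. In CPM the macrophage list stood at 422, 285 and 492 in the AKT/WEE1, KS100 and control pools, so few counts do not mean few immune cells.

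A gene was called higher in a pool where the normalised ratio of the pools was at least 2 and its 95% interval lay wholly beyond 1.5-fold. These intervals are exact conditional intervals of the ratio of 2 counts and cover counting error only, since reads without molecular identifiers are not independent molecules and 1 library a side gives no replicate error and no p-value. By this rule 46 of the 240 genes (19.2%) were called, 16 of them (6.67%) higher with AZD5363 and MK1775 and 30 (12.5%) higher with KS100. The split depended on the scaling. Library totals gave 38 and 22, size factors of DESeq2 gave 11 and 35, and totals of nuclear protein-coding genes gave 25 and 29, which moved the median log2 ratio by 0.28, -0.12 and 0.12. None of the 46 genes changed direction under these scalings. With the KS100 library thinned to the depth of the AKT/WEE1 library, 30 genes were called, 14 and 16, of which 25 are among the 46. The remaining 194 genes were not called, at ratios from 0.283 for Rps2 to 3.19 for mt-Nd3, and the interval of 126 of them included 1.

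**Figure D1:**
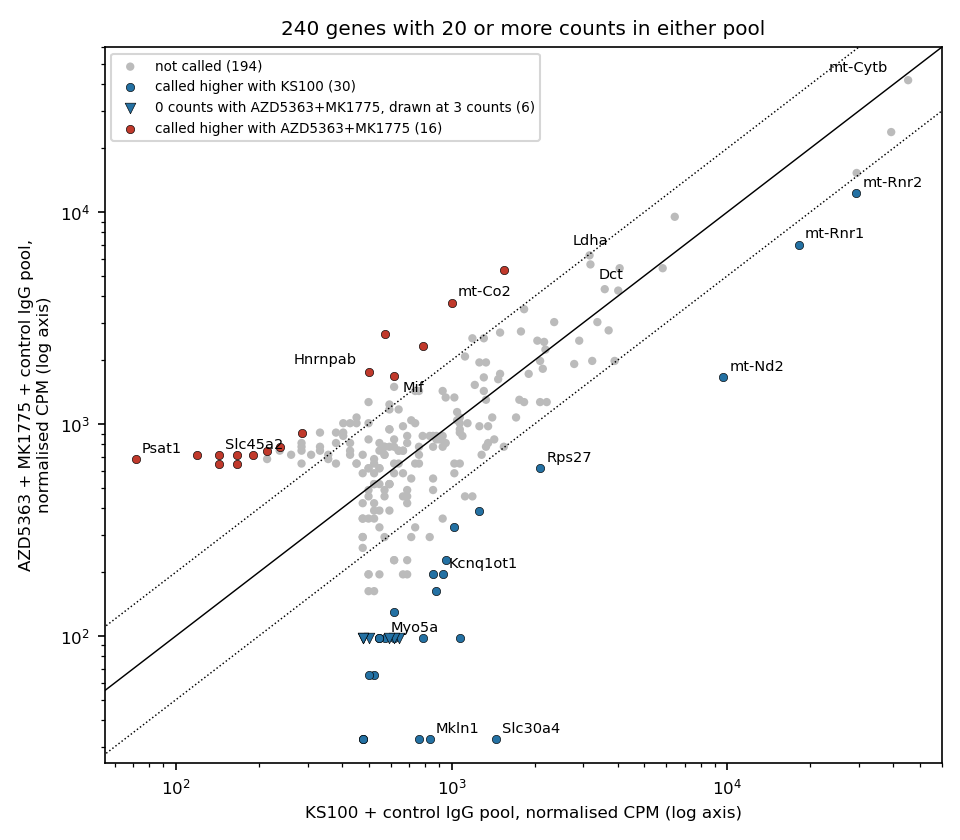
Normalised CPM of the 240 genes in the KS100 pool (x axis, log) and the AKT/WEE1 pool (y axis, log), with the line of equality (solid), 2-fold lines (dotted), called genes in colour and genes at 0 counts in the AKT/WEE1 pool as triangles drawn at 3 counts. Most genes lie between the dotted lines, 16 genes stand above with AZD5363 and MK1775, and the 30 below include genes with 0 or 1 count in the AKT/WEE1 pool.

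Across the 240 genes the ratios spread widely around a centre that the scaling places. The median log2 ratio of the AKT/WEE1 pool to the KS100 pool was -0.03, 106 genes lay within 1.5-fold, and 115 had a ratio above 1. That median was 0.24 with library totals and -0.15 with DESeq2 size factors, so its closeness to 0 is no result about the pools. Pearson's r on log2 of CPM plus 20 was 0.56 across these genes, which are not independent replicates and share the 2 libraries. Just inside the minimum, 74 genes whose higher count was 20 to 24 had a median log2 ratio of 0.16, and just outside it, 153 genes with 15 to 19 counts had -0.02. Summed over the 240 genes, the ratio was 0.869 (0.848 to 0.891). It was 1.06 (1.03 to 1.09) over the 215 nuclear protein-coding members and 1.18 (1.13 to 1.23) over the 159 of these that encode no ribosomal protein, beside 0.915 (0.899 to 0.930) over all nuclear protein-coding genes.

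The genes higher with AZD5363 and MK1775 were of several kinds, from a serine synthesis enzyme to RNA-binding and pigment proteins. Psat1, which makes phosphoserine in serine synthesis, lies at chr19:15904678-15947337 (GRCm38, minus strand) and had 21 counts in the AKT/WEE1 pool and 3 in the KS100 pool. That is 682.1 against 71.3 CPM, a ratio of 9.57 (2.86 to 50.1), with 507 counts or 294.7 CPM in the control pool. Psat1 thus lay above control in one pool, at 2.31 times (1.42 to 3.58), and below it in the other, at 0.242 times (0.0497 to 0.711). Both ratios share the control library.

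Several of the other genes in this direction bind RNA or act on proteins. Hnrnpab, an RNA-binding protein of messenger RNA processing, had 54 and 21 counts, a ratio of 3.52 (2.09 to 6.13). Pabpc4, which binds poly(A) tails, had 22 and 7, a ratio of 4.30 (1.77 to 11.9). Rbx1, the RING subunit of cullin ubiquitin ligases, had 20 and 6, a ratio of 4.56 (1.76 to 13.9). Serpinh1, a chaperone of collagen in the endoplasmic reticulum, had 22 and 8, a ratio of 3.76 (1.61 to 9.77). Hnrnpab was lower than in the control pool in both pools, at 0.735 and 0.209 times, so here the pools differed in how far below control they lay.

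A further group covered pigment, a cytokine and a secreted enzyme. Slc45a2, a transporter of the melanosome membrane needed for pigment, had 22 and 6 counts, a ratio of 5.01 (1.97 to 15.1). Mif, a secreted cytokine and tautomerase, had 52 and 26, a ratio of 2.73 (1.68 to 4.56), and lay below control in both pools, at 0.499 and 0.182 times. Car6, a secreted carbonic anhydrase, had 20 and 7, a ratio of 3.91 (1.59 to 10.9). Wdr6 (23 and 9 counts) and Fkbp6 (24 and 10) were also called and lie outside the rule for named genes. With DESeq2 size factors Car6, Serpinh1, Rps13-ps2, Wdr6 and Fkbp6 were no longer called.

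Of these 16 genes, mt-Co2, Gm28437, Gm13341 and Rps13-ps2 have near-identical copies elsewhere in the genome, so their single values are uncertain, and the first 3 are described with the mitochondrial genes. Gm10800, a predicted gene, had 22 and 5 counts, a ratio of 6.01 (2.22 to 20.3), and its 597 counts in the control pool stood beside 0 with anti-PD-1. Rps13-ps2, a processed pseudogene, had 28 and 12, and its whole transcript of 453 bases is identical to a stretch of Rps13. Rps13 itself had 61 and 136. Summed, the pair had 89 and 148 counts, a ratio of 0.822 (0.625 to 1.08), and would not be called.

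**Figure D2:**
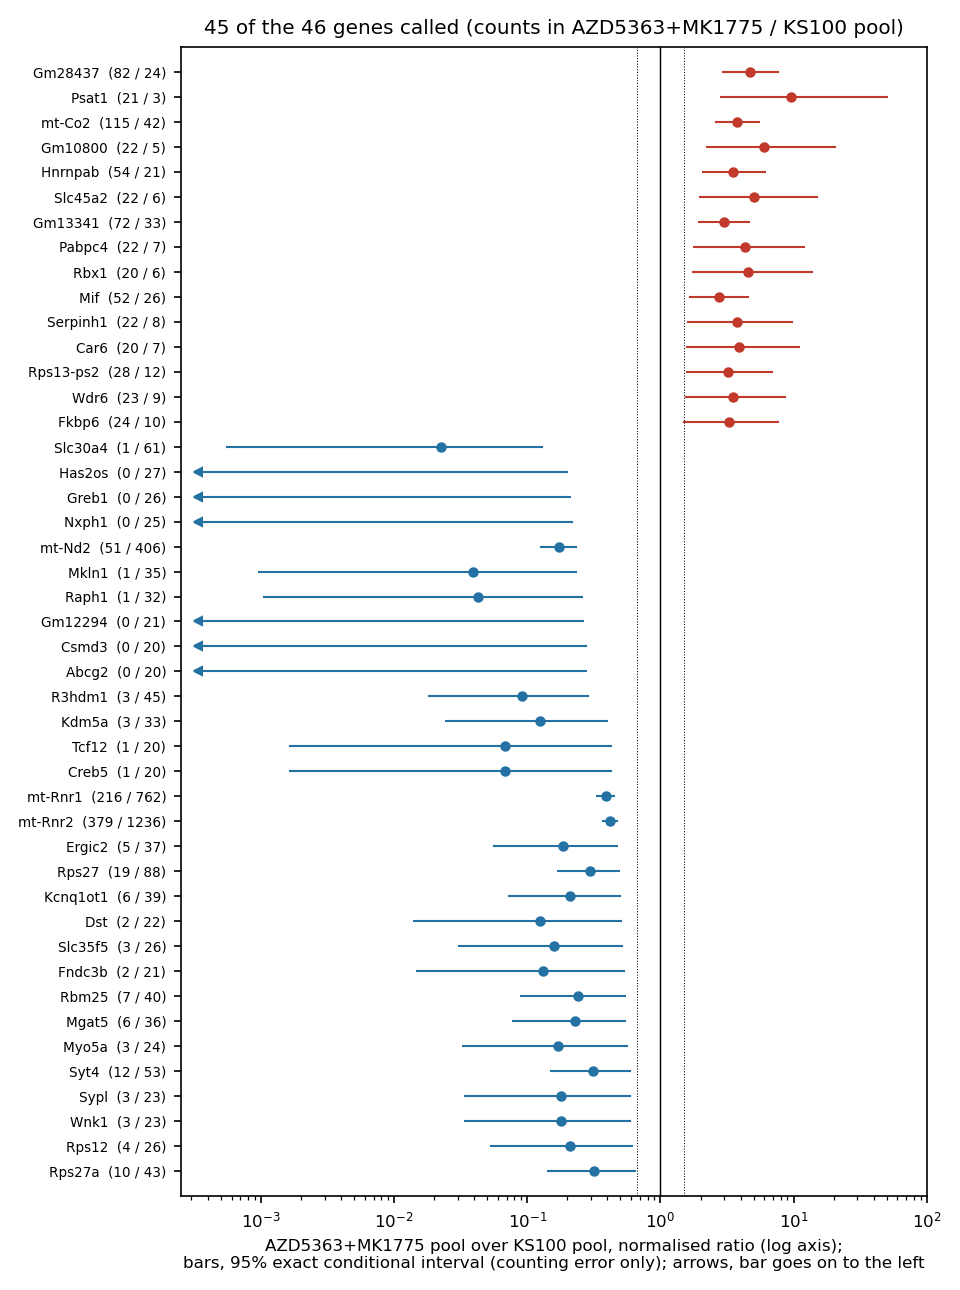
Normalised ratio of the AKT/WEE1 pool over the KS100 pool (x axis, log) for 45 of the 46 called genes, with counts in both pools beside each name, points for ratios, bars for 95% intervals of counting error and arrows where a bar goes on to the left. The 15 genes shown as higher with AZD5363 and MK1775 sit between 2.73 and 9.57, and 19 of the 30 genes higher with KS100 rest on 3 or fewer counts in the AKT/WEE1 pool.

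The genes higher with KS100 were mostly at low levels in control tumours, and by the calling rule most had few counts in the AKT/WEE1 pool. In the AKT/WEE1 pool 19 of the 30 had at most 3 counts, and 6 had 0. Their median level in the control pool was 116.5 CPM, against 445.5 CPM for the 16 genes of the other direction and 911.6 CPM for the 194 genes not called. Genes with few AKT/WEE1 counts entered the comparison only through the KS100 pool, so the minimum and the calling rule also bear on these medians. In comparisons that share the control library, 25 of the 30 were called above control in the KS100 pool. The 30 genes were picked for being higher in that same KS100 library, which favours such a call. The 25 are thus not independent of the choice of genes, and no share for all compared genes is given beside them. Of the 30, 1 gene, Rps12, was called below control in the AKT/WEE1 pool. A value below control was hard to call in the AKT/WEE1 pool, where 3 counts are already 97.4 CPM.

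Slc30a4, a zinc transporter of endosomes and secretory vesicles at chr2:122681233-122702663 (minus strand), had the interval farthest from 1. It had 1 count in the AKT/WEE1 pool, 61 with KS100 and 67 in the control pool, or 32.5, 1449 and 38.9 CPM. Its level with KS100 was thus 44.6 times that of the AKT/WEE1 pool (7.71 to 1791) and 37.2 times that of the control pool (25.9 to 53.5). The AKT/WEE1 pool did not stand apart from control at 0.834 times (0.0208 to 4.81). With anti-PD-1 the counts were 63 without inhibitor, 6 with AZD5363 and MK1775 and 13 with KS100, and the KS100 pool was again the higher in CPM.

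Another 6 genes had no count in the AKT/WEE1 pool and are given as lower bounds against 3 counts in that pool. None of the 6 was called after thinning, which left each with 11 to 17 KS100 counts and so under the minimum of 20. The lower limits of their intervals, which also cover the counting error of the KS100 count, ran from 3.61-fold for Csmd3 and Abcg2 to 5.0-fold for Has2os. Has2os, a non-coding RNA antisense to the hyaluronan synthase gene Has2, had 27 counts with KS100, at least 6.58-fold higher. Greb1, a hormone-regulated gene of growth control, had 26, at least 6.34-fold higher, with 4 counts in the much deeper control library. Nxph1, a secreted ligand of neurexins, had 25, at least 6.10-fold higher. Each of these 3 genes had at most 4 counts in the control pool. The processed pseudogene Gm12294 had 21 counts, at least 5.12-fold higher. Csmd3, a very long gene for a membrane protein of neurons, had 20, and Abcg2, a drug efflux transporter, had 20, each at least 4.88-fold higher. Abcg2 differed from the other 5 in having 66 counts in the control pool. Has2os, Nxph1 and Gm12294 had 0 in both libraries without an inhibitor.

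The next genes had 1 to 3 counts in the AKT/WEE1 pool and act in protein turnover, the cytoskeleton, chromatin and transcription. Mkln1, a scaffold of a ubiquitin ligase complex, had 1 count in the AKT/WEE1 pool and 35 in the KS100 pool, 25.6-fold higher (4.30 to 1040). Raph1, which guides actin at the cell edge, had 1 and 32, 23.4-fold higher (3.91 to 953). R3hdm1 had 3 and 45, 11-fold higher (3.52 to 55.2). The intervals are wide because the lower count is so small. Kdm5a, a demethylase of histone H3, had 3 and 33, 8.05-fold higher (2.52 to 41.0). The transcription factor genes Tcf12 and Creb5 had 1 and 20 counts each, 14.6-fold higher (2.34 to 606). They differed in the control pool, where Tcf12 had 286 counts and Creb5 had 0.

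The imprinted antisense RNA Kcnq1ot1 (chr7:143203458-143296549, minus strand) had 6 and 39 counts, 4.75-fold higher with KS100 (2.0 to 13.7). Slc35f5, a solute carrier gene, had 3 and 26, 6.34-fold higher (1.94 to 32.7). The strand setting of the counting is not given in the sources used here, so reads of Kcnq1ot1 and Has2os cannot be told apart from those of the genes they overlap. The 8 genes not named by the rule, Ergic2, Dst, Fndc3b, Rbm25, Mgat5, Syt4, Sypl and Wnk1, had 2 to 12 counts in the AKT/WEE1 pool and 21 to 53 in the KS100 pool. They were 3.23-fold (Syt4) to 8.05-fold (Dst) higher with KS100.

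The 30 genes also differed in length from the rest, which the rule did not use. Their median span on the genome was 86.6 kb, against 7.31 kb for the 16 genes of the other direction, 6.87 kb for the genes not called and 8.27 kb for all 240. A span over 100 kb was found for 13 of the 30, none of the 16 and 11 of the 194. Their median exon length was 8.96 kb, against 2.13 kb and 3.01 kb. Chromosome 6 held 7 of the 30 and 20 of the 240. These are descriptions of genes chosen on the same counts and were not tested.

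A list of 20 neuronal and synaptic genes, most of them very long (median span 1176 kb), had the same direction. It summed to 1 count in the AKT/WEE1 pool and 132 in the KS100 pool, a ratio of 0.0104 (0.00026 to 0.0587). The single AKT/WEE1 count was of Ctnna2, and 19 of the 20 genes had 0 there, while 1 of 20 had 0 with KS100. Nxph1 and Csmd3 were the members with 20 or more counts, and both were called. Below the minimum, Lrp1b had 17 counts and Nrxn3 had 12 with KS100. In both pools without an inhibitor, 15 of the 20 genes had 0 counts. These genes were put on the list with earlier results of these data known, so the list is no independent evidence of the direction.

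The additive model estimated the difference between the inhibitor arms averaged over the antibody settings, not whether it held in each. It was fitted with edgeR's quasi-likelihood test over all 6 pools, with inhibitor arm and antibody as terms, and it uses pools of another treatment as replicates on 2 residual degrees of freedom. Of the 4912 genes fitted, 81 passed at a Benjamini-Hochberg adjusted p under 0.05 (1.65%), 7 higher with AZD5363 and MK1775 (0.143%) and 74 higher with KS100 (1.51%), and 433 had an unadjusted p under 0.05. All 240 genes were fitted and 8 passed, each of them higher with KS100 in the pair as well. That shared direction carries no weight of its own, since the model holds the same pools whose counts chose and called the genes. By edgeR's adjusted p, these were Greb1 (0.000652), Gm12294 (0.000652), Slc30a4 (0.000717), Has2os (0.00106), Csmd3 (0.00199), Nxph1 (0.00379), Creb5 (0.0187) and Kcnq1ot1 (0.0306). None of the 16 genes higher with AZD5363 and MK1775 passed. The nearest was Psat1, with an edgeR adjusted p of 0.228.

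The additive calls rested on few libraries. Without the AKT/WEE1 pool with anti-PD-1, 0 genes passed edgeR's test (136 at an unadjusted p under 0.05). Without the KS100 pool 4 passed, without the KS100 pool with anti-PD-1 1 passed, and without the AKT/WEE1 pool 41 passed. Of the 81 genes, 31 had 0 counts in both pools without an inhibitor, and among genes with a count there 44 passed. The DESeq2 Wald test called 58.

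The mitochondrial genome gave the most abundant of the 240 genes and held differences in both directions. Ratios of the AKT/WEE1 pool to the KS100 pool ran from 0.172 for mt-Nd2 to 3.74 for mt-Co2 among 12 genes of 1 chromosome that are cut from long shared precursor transcripts. mt-Nd2, a subunit of respiratory complex I, was 5.82-fold higher with KS100 (4.34 to 7.95). It had 51 counts in the AKT/WEE1 pool, 406 with KS100 and 664 in the much deeper control library. These were 1657, 9647 and 385.9 CPM, so both pools lay above control. The ribosomal RNA mt-Rnr1 had 216 and 762 counts, 2.58-fold higher with KS100 (2.22 to 3.02), and mt-Rnr2 had 379 and 1236, 2.39-fold higher (2.12 to 2.68), a call that library totals ended. mt-Co2, a subunit of cytochrome c oxidase, moved the other way with 115 and 42 counts, a ratio of 3.74 (2.61 to 5.46). It had 18 counts in the control pool. In CPM the AKT/WEE1, KS100 and control pools had 3735, 998.0 and 10.5, so here too both lay above control.

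The mitochondrial genes not called lay between these. mt-Cytb, the gene with the most counts in both pools, had 1288 and 1903 counts, a ratio of 0.925 (0.861 to 0.994). The complex I subunits mt-Nd1 (733 and 1652), mt-Nd4 (470 and 1238) and mt-Nd5 (61 and 164) had ratios of 0.607, 0.519 and 0.508. mt-Co1 had 85 and 156, a ratio of 0.745 (0.565 to 0.976). Above 1 lay mt-Atp6, with 47 and 51 counts, mt-Co3, with 31 and 17, and mt-Nd3, with 21 and 9. The 13 protein genes of the mitochondrial genome summed to 2902 and 5649 counts, a ratio of 0.702 (0.671 to 0.735), with mt-Co2 the 1 gene called higher and mt-Nd2 the 1 called lower among 10 tested, whose median log2 ratio was -0.26.

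Nuclear copies were examined for the 4 mitochondrial genes above 1, and whether the other mitochondrial genes have such copies was not examined. To show how alike the copies are, 60 bases are printed of mt-Co2 (chrM:7457-7516), of its copy Gm28661 (chr1:24615062-24615121, minus strand) and of its copy Gm13341 (chr2:22587471-22587530, minus strand), and 60 bases of mt-Co3 (chrM:9330-9389) and its copy Gm28437 (chr1:24613189-24613248, minus strand). They are GENCODE M21 transcripts on GRCm38, written 5′ to 3′ on the strand of the transcript, and capitals mark bases that differ from mt-Co2.
mt-Co2: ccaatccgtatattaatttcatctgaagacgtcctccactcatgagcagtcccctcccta
Gm28661: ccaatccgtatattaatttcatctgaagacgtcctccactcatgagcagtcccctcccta
Gm13341: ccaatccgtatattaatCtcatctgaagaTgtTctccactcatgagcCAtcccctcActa
mt-Co3: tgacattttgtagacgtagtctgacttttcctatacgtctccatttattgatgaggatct
Gm28437: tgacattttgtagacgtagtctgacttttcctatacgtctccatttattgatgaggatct

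Over the aligned bases the chromosome 1 copies cannot be told from their source by sequence. Gm28661 matched mt-Co2 at 681 of 681 bases, Gm28437 matched mt-Co3 at 783 of 783, Gm10925 matched mt-Atp6 at 678 of 678 and Gm28438 matched mt-Nd3 at 342 of 342 aligned bases. These 4 copies lie between bases 24612775 and 24615565 of chromosome 1. Gm13341 on chromosome 2 matched mt-Co2 at 656 of 672 aligned bases (97.6%), with 6 of the 16 differences in the window shown. Gm28437 was called with 82 and 24 counts, a ratio of 4.67 (2.93 to 7.70), and Gm13341 with 72 and 33, a ratio of 2.98 (1.95 to 4.65).

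Merging each copy with its source kept the direction. mt-Co2 with its 2 copies had 218 and 93 counts, a ratio of 3.20 (2.50 to 4.13). mt-Co3 with Gm28437 had 113 and 41, a ratio of 3.77 (2.61 to 5.53), and mt-Nd3 with Gm28438 had 60 and 30, a ratio of 2.73 (1.74 to 4.39). mt-Atp6 with Gm10925 had 130 and 114, a ratio of 1.56 (1.20 to 2.02). So mt-Co2 and mt-Co3, which encode subunits of cytochrome c oxidase, lay above 1 with or without the copies, while mt-Co1, another subunit of that enzyme, the ribosomal RNAs and mt-Nd2 lay below. Leaving out the mitochondrial genes, their copies and Rps13-ps2 altogether left 39 of the 46 calls, 12 of them higher with AZD5363 and MK1775 and 27 higher with KS100.

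**Figure D3:**
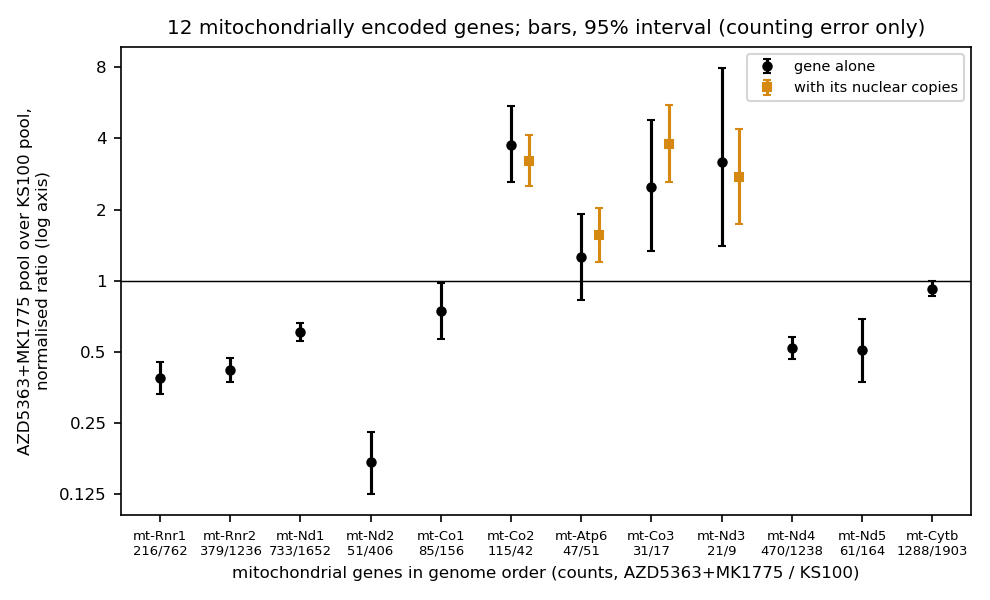
Normalised ratio of the AKT/WEE1 pool over the KS100 pool (y axis, log) for 12 mitochondrial genes in genome order, with counts in both pools under each name, black points for the gene alone, orange squares for the gene summed with its nuclear copies and bars for 95% intervals of counting error. mt-Rnr1, mt-Rnr2 and mt-Nd2 lie below 1, and mt-Co2, mt-Co3 and mt-Nd3 lie above it in either form.

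Of 44 lists of pathway and cell type genes, 13 had a summed ratio whose interval lay above 1 and 9 had one below, and 127 of the 240 genes were on a list. The 159 nuclear protein-coding members that encode no ribosomal protein also summed above 1, at 1.18 (1.13 to 1.23). Intervals of the NRF2, lysosome, splicing and immediate early lists included 1.18. Those of the proteasome and translation factor lists began between 1.13 and 1.23. No list was tested against this ratio. Of the 46 called genes 15 were on a list and 31 were on none, so most of the called genes belong to no pathway described here. The list sums of signalling near the drugs' targets had intervals that included 1 and left room for sizeable differences. The 30 genes of the AKT and FOXO axis summed to 42 and 46 counts, a ratio of 1.25 (0.802 to 1.94), or 1.53 (0.985 to 2.38) with library totals, with Gsk3b, a kinase that AKT inhibits, at 13 and 5 counts and Akt1 at 8 and 9. None of the 30 reached 20 counts. Akt2 had 0 in both pools.

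The call on the cell cycle lists depended on the scaling. The list of WEE1, CDK1 and mitosis genes summed to 155 and 191 counts, a ratio of 1.11 (0.892 to 1.38), and 4 members reached 20 counts, with 0 called and a median log2 ratio of -0.47, on the other side of equality from the sum. The median over all 240 genes was -0.03. Tuba1c, an alpha-tubulin, had 29 and 45 counts, and Birc5, an inhibitor of apoptosis that works at mitosis, had 13 and 29. Wee1 and Pkmyt1, its relative, had 0 in both pools. Cdk1 had 12 and 3 counts, a ratio of 5.47 (1.48 to 30.2), and lay under the minimum of 20. DNA replication genes summed to 81 and 94, a ratio of 1.18 (0.864 to 1.60), with Dut at 10 and 14 and Rrm2 at 4 and 11. With library totals the intervals of both lists lay above 1, at 1.36 (1.10 to 1.69) for mitosis and 1.45 (1.06 to 1.97) for replication. Targets of p53 summed to 27 and 50, a ratio of 0.738 (0.444 to 1.20), with Zmat3 at 11 and 17 and Ccng1 at 1 and 16.

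The aldehyde dehydrogenases themselves were barely counted. The 19 genes of the family summed to 17 and 11 counts, a ratio of 2.11 (0.933 to 4.99). Aldh18a1, which acts in proline synthesis, had 6 and 1, and Aldh2, the mitochondrial enzyme for acetaldehyde, had 2 and 2. Aldh1a1 and Aldh3a1 had 0 in both pools, and Aldh1a3 had 0 and 3. This interval included 1, as it did with DESeq2 size factors, but lay above 1 with library totals, at 2.60 (1.15 to 6.13), and with totals of nuclear protein-coding genes, at 2.31 (1.02 to 5.46). Genes of NRF2 and redox defence, which respond to reactive aldehydes, summed to 197 and 201, a ratio of 1.34 (1.10 to 1.64). Of 4 tested, Fth1 of ferritin (33 and 45 counts) and Prdx1, a peroxiredoxin (46 and 26), had the largest sums, and 0 were called.

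Genes of glucose use were higher in the AKT/WEE1 pool than in the KS100 pool as a sum, and near the control pool. In CPM the glycolysis list stood at 9225, 4966 and 9524 in the AKT/WEE1, KS100 and control pools. The glycolysis list held 284 and 209 counts, a ratio of 1.86 (1.55 to 2.23), and 2 of its 18 genes reached 20 counts, with 0 called and a median log2 ratio of 1.16. Ldha, which turns pyruvate into lactate, had 192 and 133 counts, a ratio of 1.97 (1.57 to 2.48), just under the 2-fold of the rule. It made up 67.6% and 63.6% of the list, and without it the ratio was 1.65 (1.21 to 2.27). Pkm, the pyruvate kinase, had 25 and 12, a ratio of 2.85 (1.38 to 6.22). The hypoxia list summed to 145 and 111, a ratio of 1.79 (1.39 to 2.31), with Mif called and Bnip3, a mitophagy receptor, at 31 and 19. Without Mif the ratio was 1.5 (1.10 to 2.03). In CPM the hypoxia list stood at 4710, 2638 and 7038 in the AKT/WEE1, KS100 and control pools.

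Lists of endoplasmic reticulum chaperone, heat shock, proteasome and lysosome genes also lay above 1. The nuclear protein-coding members that encode no ribosomal protein lay at 1.18. The CCT chaperonin, a further folding list described below, lay at 0.953. Chaperones of the endoplasmic reticulum and the unfolded protein response summed to 179 and 141, a ratio of 1.74 (1.38 to 2.18). In CPM they stood at 5814, 3350 and 7871 in the AKT/WEE1, KS100 and control pools. Pdia6, a disulfide isomerase, had 44 and 32 counts, and Hspa5, the master chaperone BiP, had 24 and 24, and 0 of 3 tested were called. Heat shock genes summed to 368 and 350, a ratio of 1.44 (1.24 to 1.67), but Hsp90ab1 made up 79.3% and 77.4% of the list. Without it the ratio was 1.32 (0.947 to 1.83). In CPM the heat shock list stood at 11953.5, 8316 and 9570 in the AKT/WEE1, KS100 and control pools. Proteasome and ubiquitin genes summed to 233 and 217, a ratio of 1.47 (1.21 to 1.77), with Psmb1 at 22 and 32 and Ubb at 28 and 16. Lysosome genes summed to 195 and 197, a ratio of 1.35 (1.10 to 1.66), with Cd63 at 44 and 31.

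**Figure D4:**
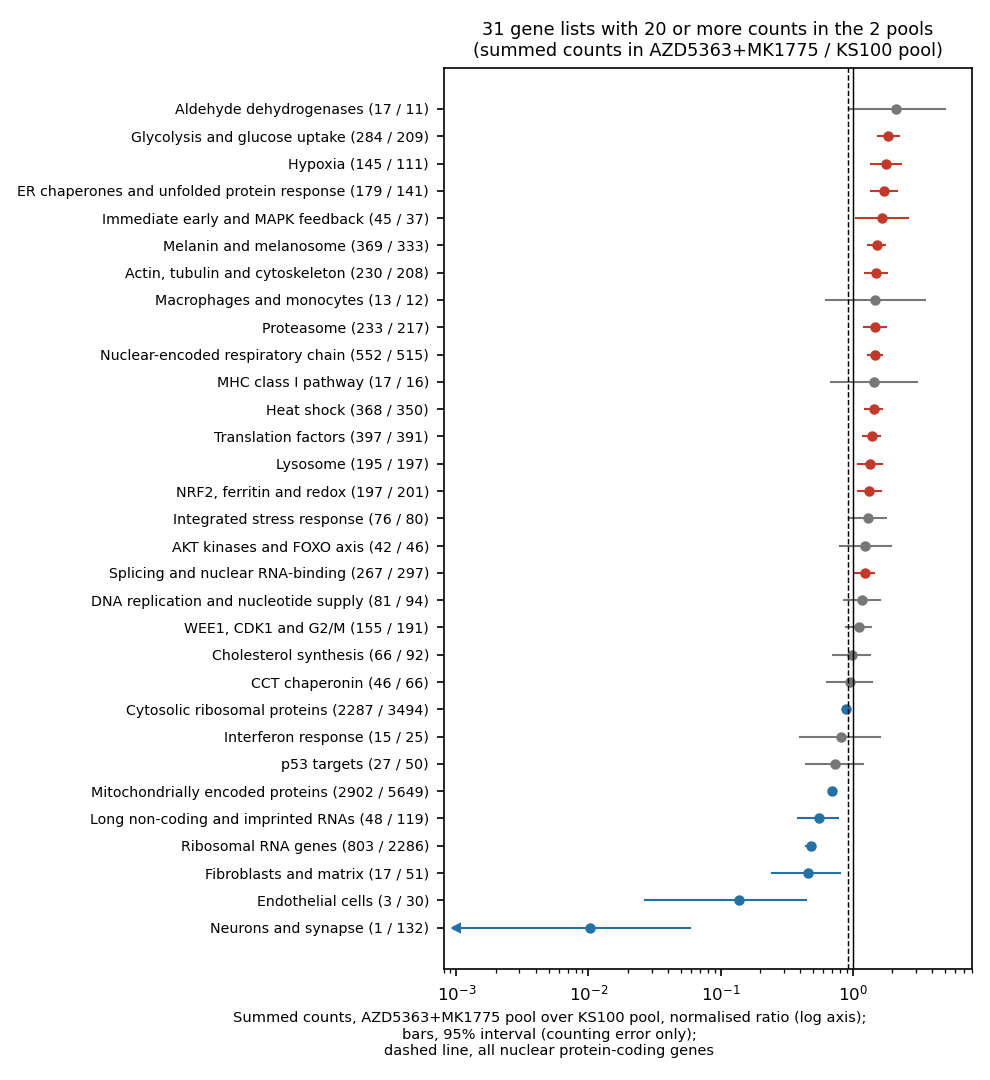
Normalised ratio of summed counts, AKT/WEE1 pool over KS100 pool (x axis, log), for the 31 lists with 20 or more counts in both pools together and at least 1 in the AKT/WEE1 pool, with the sums beside each name and bars for 95% intervals of counting error. The dashed line at 0.915 is the ratio over all nuclear protein-coding genes, the glycolysis list stands at 1.86, and the neuronal list stands alone at 0.0104.

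Respiratory chain genes of the nuclear genome were higher in the AKT/WEE1 pool than in the KS100 pool as a sum, and below control in both. They stood at 17930, 12237 and 29373 CPM in the AKT/WEE1, KS100 and control pools. They summed to 552 and 515 counts, a ratio of 1.47 (1.30 to 1.66), with 0 of 9 tested called and a median log2 ratio of 0.60 over these 9. Slc25a3, the phosphate carrier, had 44 and 39 counts, and Atp5g3, of the ATP synthase, had 27 and 37. The mitochondrially encoded subunits lay below 1 as a sum, at the 0.702 given above, while 4 of the 10 tested lay above 1 as single genes. Cytoskeleton genes summed to 230 and 208, a ratio of 1.51 (1.25 to 1.83), with Actb at 84 and 75. Immediate early genes summed to 45 and 37, a ratio of 1.66 (1.05 to 2.64), whose interval included 1 with DESeq2 size factors, with Dusp6 at 16 and 7.

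Protein synthesis genes did not move as 1 group. Translation factors summed to 397 and 391 counts, a ratio of 1.39 (1.20 to 1.60), with Eef1b2 at 76 and 86, Eef2 at 44 and 55, and 0 of 6 tested called. Cytosolic ribosomal proteins, the largest list with 56 of the 240 genes, summed to 2287 and 3494, a ratio of 0.895 (0.848 to 0.943), close to the 0.915 of all nuclear protein-coding genes. This direction flipped with library totals, where the ratio was 1.10. The median log2 ratio of the 56 genes was -0.22. In this list 3 of the 56 genes were called, all higher with KS100, a smaller share than the 12.5% of all 240 genes called in that direction. Rps27 had 19 and 88 counts, 3.39-fold higher (2.05 to 5.89), Rps27a, which is fused to ubiquitin, had 10 and 43, 3.15-fold higher (1.56 to 7.02), and Rps12 had 4 and 26, 4.75-fold higher (1.65 to 18.7). Library totals ended the calls of Rps12 and Rps27a. The other 53 were not called, and over the 56 the ratios ran from 0.210 to 2.73, with 19 above 1. Ribosomal protein genes have many processed pseudogenes, so these single values are uncertain.

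Pigment genes and stress genes were mixed. The melanin and melanosome list summed to 369 and 333 counts, a ratio of 1.51 (1.30 to 1.76), and 1.34 (1.09 to 1.64) without Dct. In CPM it stood at 11986, 7913 and 26935 in the AKT/WEE1, KS100 and control pools. Of 6 tested, Slc45a2 was called higher with AZD5363 and MK1775, and Myo5a, the motor that carries melanosomes, was called higher with KS100, at 3 and 24 counts, 5.85-fold (1.78 to 30.4), a call that library totals ended. Mitf, the factor that drives pigment genes, had 9 and 20 counts, a ratio of 0.615 (0.247 to 1.41). Of the integrated stress response, Psat1 was called. The list summed to 76 and 80, a ratio of 1.30 (0.936 to 1.80), while the median log2 ratio of the 3 tested was -0.34. Atf4, its transcription factor, had 17 and 30 counts, on the other side of 1 from Psat1. Splicing and nuclear RNA-binding genes summed to 267 and 297, a ratio of 1.23 (1.04 to 1.45), with Hnrnpab called and Npm1 at 31 and 48. The interval of that list included 1 with DESeq2 size factors.

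The sums of cholesterol synthesis and chaperonin genes were close to 1, while a list of non-coding RNAs lay below it. Cholesterol synthesis genes summed to 66 and 92, a ratio of 0.981 (0.704 to 1.36), with Msmo1 at 12 and 18. The CCT chaperonin summed to 46 and 66, a ratio of 0.953 (0.639 to 1.41), with Cct8 at 14 and 9. Long non-coding and imprinted RNAs summed to 48 and 119, a ratio of 0.551 (0.386 to 0.777), and the interval stayed below 1 with the other scalings. In the anti-PD-1 pair the ratio of this list was 1.74 (1.48 to 2.06). In that list Kcnq1ot1 was called, Malat1 had 11 and 39 counts, and Gas5 had 22 and 24.

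Sums of endothelial and of fibroblast and matrix markers were higher in the KS100 pool, on few counts. Endothelial genes summed to 3 in the AKT/WEE1 pool and 30 in the KS100 pool, a ratio of 0.137 (0.0267 to 0.440), with Flt1, a receptor for vascular endothelial growth factor, at 0 and 9 and Pecam1 at 0 and 7. The defining gene Cdh5 had 0 in both pools, and 10 of the 13 list genes had 0 in the AKT/WEE1 pool. Fibroblast and matrix genes summed to 17 and 51, a ratio of 0.456 (0.247 to 0.802), with Sparc at 12 and 14 and Col1a2 at 0 and 11. Pericyte and smooth muscle genes summed to 2 and 6, a ratio of 0.456 (0.0450 to 2.55), whose interval included 1. Skeletal muscle genes summed to 0 and 12 and adipocyte genes to 0 and 9. None of these genes reached 20 counts. With no minimum count, the median log2 ratio over 11551 genes was -0.52, on the same side. How far the stroma sums differ from that was not tested. In the anti-PD-1 pair the ratios were 2.74 (1.84 to 4.28) for fibroblast, 17.1 (11.5 to 26.4) for skeletal muscle and 1.97 (1.17 to 3.58) for adipocyte genes, and 0.800 (0.443 to 1.57) for endothelial genes. Their part in the 30 genes higher with KS100 was not tested. Class I MHC genes summed to 17 and 16 and interferon response genes to 15 and 25.

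With anti-PD-1 the same inhibitors were given to other mice, and these pools share no library with the control IgG pair. The AKT/WEE1 pool with anti-PD-1 held 338474 counts and the KS100 pool with anti-PD-1 25521. There 466 of 2789 genes were called (16.7%), 453 higher with AZD5363 and MK1775 (16.2%) and 13 higher with KS100 (0.466%), while library totals gave 156 and 35. Of the 240 genes, 180 had counts in both anti-PD-1 pools and a ratio above 1, or 148 with library totals, and the median log2 ratio of the 240 was 1.24, or 0.57 with library totals. A ratio above 1 was thus the common state in that pair. In it 83 of the 240 genes were called higher with AZD5363 and MK1775 and 3 higher with KS100, and library totals gave 43 and 9.

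Set beside this, 11 of the 16 genes higher with AZD5363 and MK1775 had counts in both anti-PD-1 pools and a ratio above 1, or 10 with library totals. Psat1, at 45 and 0 counts, was at least 1.88-fold higher with AZD5363 and MK1775. Gm28437, mt-Co2 and Pabpc4 had 12, 5 and 17 counts against 0, too few to give a direction against a limit of 3 counts. Those called again were Hnrnpab, with 362 and 6 counts and a ratio of 7.56 (3.44 to 20.7), Mif, with 221 and 7 and a ratio of 3.96 (1.89 to 9.96), Car6, with 192 and 3 and a ratio of 8.02 (2.70 to 39.2), and Gm13341, with 73 and 1. Gm10800 lay below 1, with 12 and 7 counts and a ratio of 0.215.

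Of the 30 genes higher with KS100, 14 had counts in both anti-PD-1 pools and a ratio below 1, or 16 with library totals, and 3 had 0 counts with AZD5363 and MK1775. Over all 240 genes, 46 had counts in both anti-PD-1 pools and a ratio below 1, or 78 with library totals. Among the 30 genes, 21 reached 20 counts there, of which 2 were called in the same direction and 4 in the other. Kcnq1ot1 had 92 counts with AZD5363 and MK1775 and 119 with KS100 in the shallower library, a ratio of 0.0969 (0.0730 to 0.128). Slc35f5 had 26 and 16, a ratio of 0.204 (0.105 to 0.406). Slc30a4, at 6 and 13 counts, lay under the minimum, with a ratio of 0.0579 (0.0180 to 0.163), and Greb1 had 2 and 11 and Creb5 3 and 6. The neuronal list summed to 27 and 67 counts, a ratio of 0.0505 (0.0311 to 0.0801), while the ribosomal RNA list, at 0.480 (0.443 to 0.521) with control IgG, stood at 13 with anti-PD-1. Whether these ratios differ between the antibody settings was not tested.

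**Figure D5:**
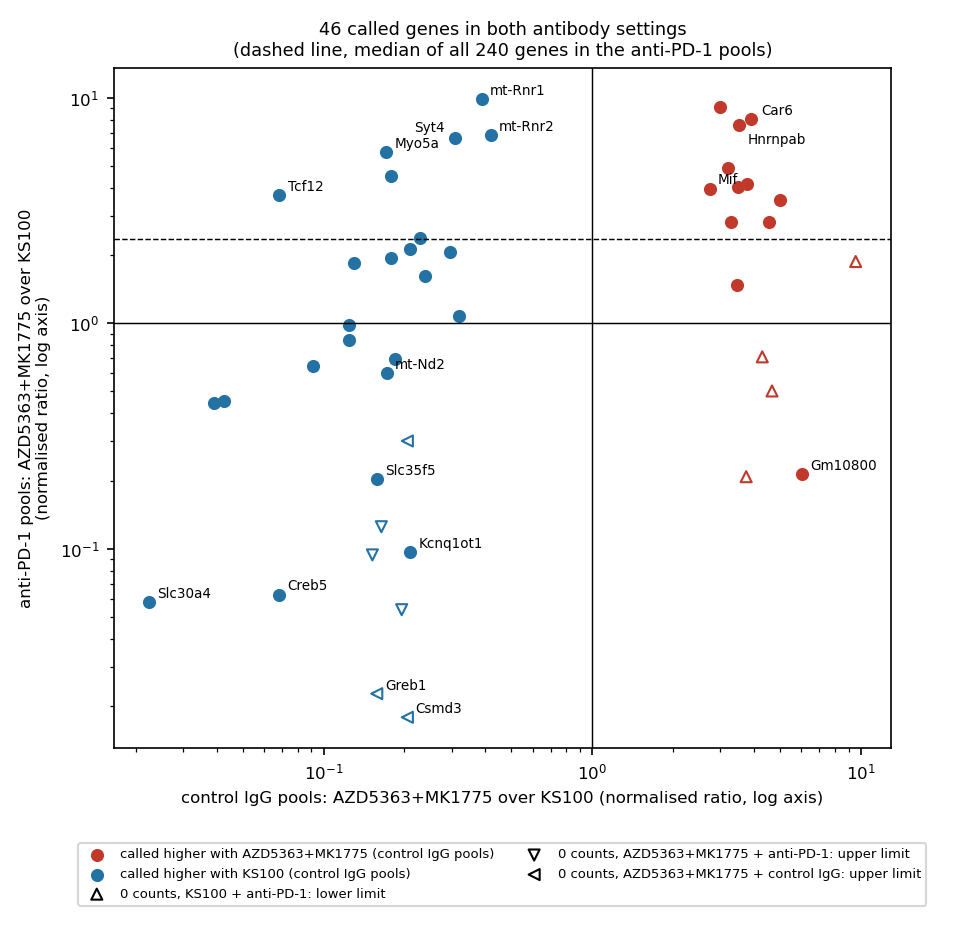
Normalised ratio of AZD5363 and MK1775 over KS100 in the control IgG pools (x axis, log) and in the anti-PD-1 pools (y axis, log) for the 46 called genes, with open triangles for genes at 0 counts in a pool, drawn against 3 counts and pointing towards the values the limit allows. Slc30a4, Creb5 and Kcnq1ot1 lie low on both axes, mt-Rnr1, mt-Rnr2, Syt4 and Myo5a lie at 5.72 or more on the y axis, and the dashed line is the median of the 240 genes.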

How the data were processed

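Each of 6 treatments gave 1 RNA library from pooled tumours. Per the labels' protocols, an oligo-dT primed 3′ kit (QuantSeq FWD) and 151 cycles of single reads on a MiSeq were used. The authors deposited 1 table of whole-number read counts per gene, with 92 spike-in names, all at 0. Per the submitters' processing notes, the work used GRCm38 with HISAT2 2.1.0, HTSeq and bcl2fastq. The annotation was not given in the sources used here, nor were the strand setting and the handling of multiply mapped reads. GENCODE M21 supplied symbols, spans and transcripts for 42548 of the 43629 genes.

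TMM factors from all 6 libraries (edgeR 4.0.16, R 4.3.3) were 1.156 for the AKT/WEE1 pool and 0.940 for the KS100 pool. They were computed after filterByExpr, with the totals of the genes kept, and then multiplied by the totals of all genes. The product is not edgeR's own effective library size, and the shift this makes was not measured. Conditional (Clopper-Pearson) intervals at 95% came from scipy 1.17.1, and copies were aligned with biopython 1.88. Medians of log2 ratios use a prior count of 2. The additive model used filterByExpr at its defaults, with DESeq2 1.42.0 as an alternative. The scripts were tested on simulated data. The groups come from the treatment labels. Nothing says that the pools stand for repeated experiments, so the model's p-values rest only on the residual spread between pools. With 1 library per treatment, that spread mixes pool-to-pool variation with any change of an inhibitor's effect between the antibody settings. The model cannot separate the 2. The alternatives were other scalings, count minimums and interval bounds, thinning, leaving out genes unseen without an inhibitor or each library in turn, and, added after seeing the data, merging or leaving out copies.

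Named were the 14 genes in each direction whose interval bound nearest to 1 was farthest from it, in each list up to 4 called members or the 2 with most counts, the drug target genes, and up to 12 genes called in both antibody settings or by the model. The genes compared and the lists were chosen with earlier results of these data known. A few results of single genes are not reported here.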

Additional observations from a re-analysis of the deposited data

Results flagged for a closer look

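For 4 genes called higher with KS100 in the control IgG pools, the anti-PD-1 pools gave the opposite call. The 2 mitochondrial ribosomal RNAs were the most counted of them. mt-Rnr1 had a ratio of AZD5363 and MK1775 to KS100 of 0.388 (0.332 to 0.451) with control IgG, on 216 and 762 counts, and of 9.89 (8.81 to 11.1) with anti-PD-1, on 22961 and 291 counts. mt-Rnr2 had 0.419 (0.373 to 0.471) with control IgG and 6.85 (6.26 to 7.51) with anti-PD-1, on 26439 and 484 counts. Gm42418, on the same list of ribosomal RNA genes, had 0.932 with control IgG and 44.3 with anti-PD-1, on 43490 and 123 counts, the first of them out of 338474 in that library.

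The other 2 are nuclear genes. Syt4, a synaptotagmin of secretory vesicles, had 0.310 (0.151 to 0.587) with control IgG and 6.63 (3.33 to 15.5) with anti-PD-1, on 423 and 8 counts. Myo5a, the melanosome motor, had 0.171 (0.0329 to 0.563) and 5.72 (1.92 to 28.1), on 137 and 3 counts. The difference between the antibody settings was not tested, since each ratio rests on 1 library a side. The median log2 ratio of all 240 genes in the anti-PD-1 pair was 1.24, so a ratio above 1 was common there. With library totals that median was 0.57 and 3 of these 4 genes were still called in the anti-PD-1 pair, while Myo5a, at 3.44 (1.15 to 16.9), was not. In the control IgG pair, library totals kept the call of mt-Rnr1, at 0.476. They ended the calls of mt-Rnr2 (0.515), Syt4 (0.380) and Myo5a (0.210) there.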

How the results depend on the processing

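The count of 46 genes moved most with the rules on counts and intervals. It was 151 with a minimum of 10 counts, 15 with a minimum of 40, 174 with no minimum, 84 with intervals only required to exclude 1 and 30 after thinning the KS100 library, where 5 of the 16 and 16 of the 30 were no longer called. It stayed within 1.5 times with library totals (60), DESeq2 size factors (46), nuclear protein-coding totals (54), genes seen without an inhibitor (43), merged copies (45) and no mitochondrial genes or copies (39), and of the 46 genes 1 changed direction under the alternatives run on single genes, Rps13-ps2, which merged with Rps13 gave 0.822. The summed ratio of cytosolic ribosomal proteins reversed to 1.10 with library totals. No other list whose interval excluded 1 changed side. The additive model's 81 genes became 37 without the filter on low counts and 44 among genes seen without an inhibitor. Leaving out 1 library at a time gave 0 to 80 genes: 41 without the AKT/WEE1 pool, 0 without the AKT/WEE1 pool with anti-PD-1, 4 without the KS100 pool and 1 without the KS100 pool with anti-PD-1. Fewer libraries remain in those fits, and the cause was not tested. No paired analysis was possible because each treatment has 1 library and the labels give no replicate numbers. Depth limits all of this: 20 counts are 649.6 CPM in the AKT/WEE1 pool and 475.2 CPM in the KS100 pool, so weakly expressed genes could not be compared.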

Other observations

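Some genes just missed the rule in the AKT/WEE1 and KS100 pools, and they were picked after their values were seen. Prdx1, a peroxiredoxin that removes hydrogen peroxide, had 46 and 26 counts, a ratio of 2.42 (1.46 to 4.08). Igfbp4, a binding protein of insulin-like growth factors, had 23 and 10, a ratio of 3.14 (1.44 to 7.40). Slc25a4, the ADP/ATP carrier of mitochondria, had 24 and 12, a ratio of 2.73 (1.32 to 6.00). On the other side, Rps2, a ribosomal protein with processed pseudogenes, had 6 and 29, a ratio of 0.283 (0.0960 to 0.693), and Slc7a5, a carrier of large neutral amino acids, had 5 and 21, a ratio of 0.325 (0.0959 to 0.887).

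Below 20 counts, Psmb6, a catalytic subunit of the proteasome, had 17 and 7, a ratio of 3.32 (1.31 to 9.47). Apoe, a lipid carrier of macrophages and other cells, had 12 and 2, a ratio of 8.20 (1.83 to 75.5), while the macrophage genes Adgre1, Csf1r and C1qa each had 0 and 1. Ccng1, a target of p53, had 1 and 16, a ratio of 0.0854 (0.00204 to 0.550).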
